A study of Mus musculus with 6 samples.

Results

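Potassium channel genes were described in single neurons of the mouse ventromedial hypothalamus (VMH). The genes were those whose symbol starts with Kcn, Kcnip1 to Kcnip4 included, with at least 20 counts over the wells kept. Of 94 such genes among the 21926 in the tables, 48 met this limit, 29 had 1 to 19 counts and 17 had none. Just inside the limit were Kcnj4 with 20 counts and Kcna1 with 21, and just outside was Kcnj12 with 19.

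The cells came from 3 male and 3 female mice killed at postnatal day 10. All carried the genotype Ai14f/+;Sf1-Cre, in which Cre recombinase under the control of Sf1 (Nr5a1) switches on a red fluorescent reporter. The reporter therefore marks cells that have had Nr5a1 active at any time, whether or not they hold its RNA at day 10. Hypothalamus was dissociated with papain, fluorescent cells were sorted, and the labels put 1 mouse on each plate of 96 wells.

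Potassium channels let potassium leave the cell and so set the resting potential, end the action potential and shape the interval between spikes. Voltage-gated (Kv) channels open on depolarization, inward rectifiers (Kir) and tandem-pore (K2P) channels carry current near rest, and calcium-activated and sodium-activated channels open when these ions enter. Auxiliary subunits, among them the KChIP calcium sensors encoded by Kcnip1 to Kcnip4, bind pore subunits and change their gating or surface number. In the VMH, glucose-sensing neurons are known for the KATP channel, whose pore is encoded by Kcnj11.

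Of 576 wells, 530 held at least 500 genes with a count and under 25% mitochondrial counts. In 517 of them at least 3 of 10 neuron markers were detected and outnumbered 26 markers of other cells, and these are called neurons. They numbered 92, 83 and 92 in the males and 78, 86 and 86 in the females. Neurons held 534149 to 782366 counts per mouse in males and 184939 to 591768 in females, and the median per neuron was 5972 to 7979.5 counts in males and 2120 to 6737.5 in females. Female 2 was the shallowest library. Markers of other cells summed to 61.4 to 80.5 CPM (counts scaled to the library total) in male neurons and 101 to 134 CPM in female neurons. Over all neurons the oligodendrocyte lineage list was the largest of these at 58.8 CPM, with a count of 7 of its 8 genes and none of Mog. Of the 5 microglial genes 1 had a count (1.21 CPM), and Cx3cr1, C1qa, C1qb and Tyrobp had none. All 7 astrocyte genes (14.5 CPM), all 3 endothelial genes (5.76 CPM) and all 3 ependymal and tanycyte genes (7.58 CPM) had a count. All 6 plates use the same 96 well names, so these names say nothing of shared cells. Neurons with a count of Nr5a1 numbered 156 (30.2%) and those with Fezf1 211 (40.8%), so most sorted neurons had no count of the gene that drives the Cre.

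The 48 genes fell into 15 families and together made up 1387 CPM of the counts of all neurons. A neuron held a median of 6 of the 48, the highest number was 23, and 11 of the 517 neurons held none. Counts per gene were low: 20 genes averaged over 20 CPM across mice, 28 averaged less, and 43 had a count in every mouse. In the 13 kept wells that were not neurons, which had a median of 904 counts against 6031 in neurons, 41 of the 48 genes had no count. At that depth a gene with no count may still be present. Kcnip3 had a count in 4 of these 13 wells. Levels below are means over mice of counts summed over the neurons of a mouse, with the SD over 6 mice. They are given as CPM, and per kilobase of annotated exon (CPM per kb) where genes are set beside each other. No source used here says whether counts grow with transcript length in this kit.

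**Figure D1:**
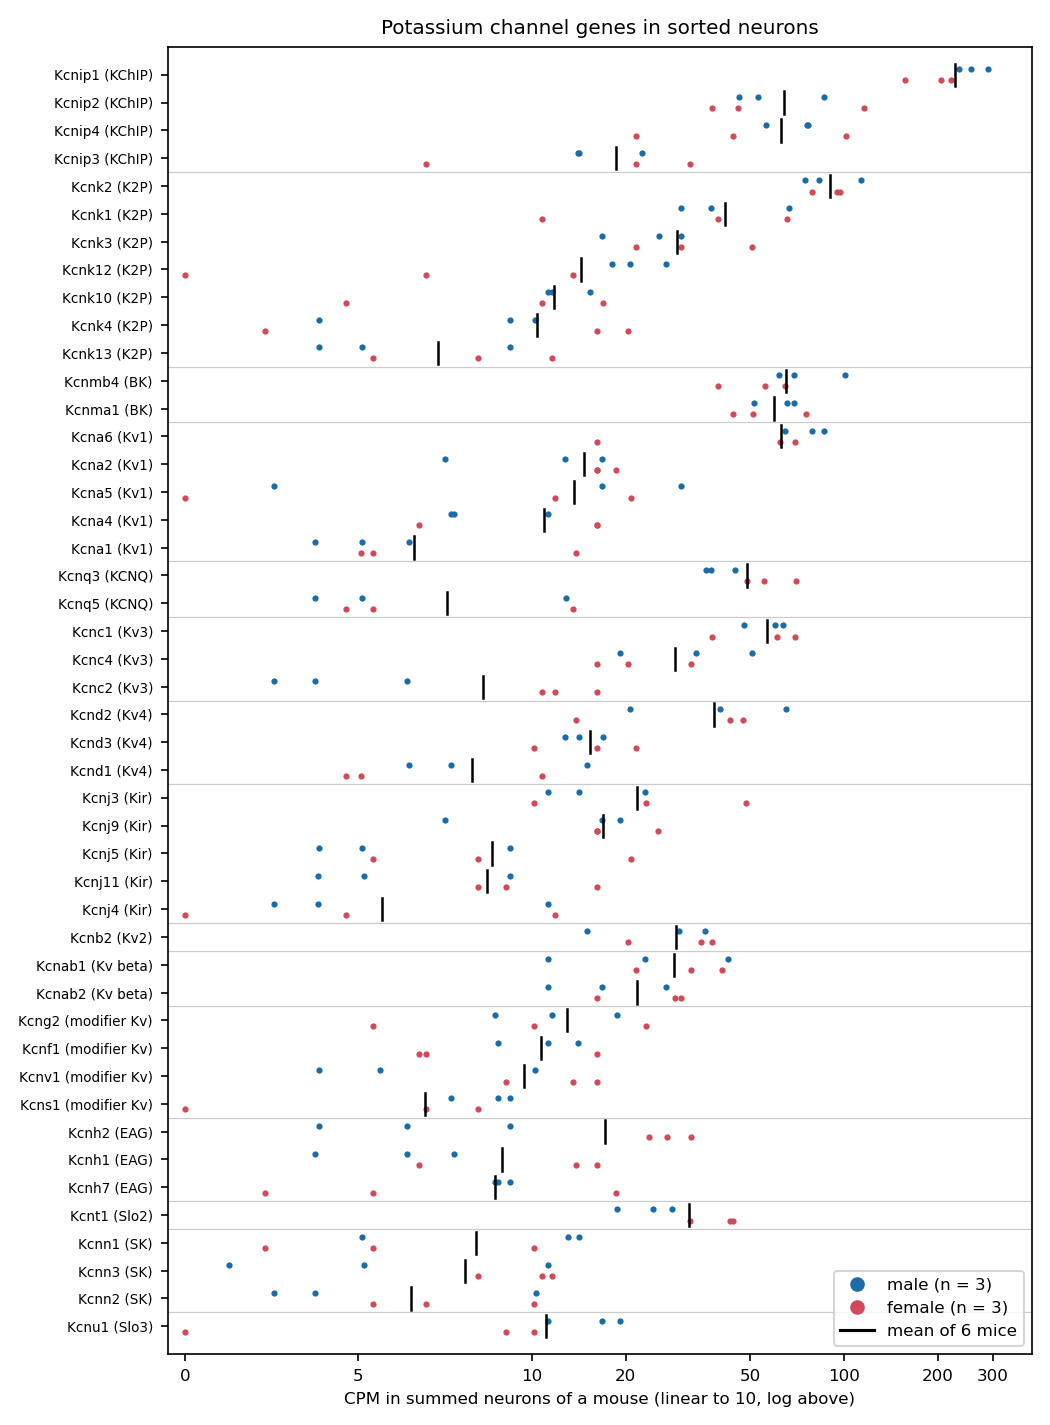
Level of the potassium channel genes reported here in the summed neurons of each mouse, in CPM on an axis that is linear to 10 and logarithmic above, with 3 males (blue), 3 females (red) and the mean of 6 mice (black bar), grouped by family. Kcnip1 lay between 157 and 288 CPM in every mouse, above every value of the other genes plotted.

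The A-type current that delays spikes is carried in neurons by Kv4 pores with KChIP subunits. Kcnip1 (ENSMUSG00000053519.15, GRCm38/mm10 chr11:33629339-33993152, minus strand) was at 226 ± 44.8 CPM (SD, n = 6). Its lowest, median and highest mouse had 157, 227 and 288 CPM. Kcnip1 had a count in 326 of 517 neurons (63.1%) and in 1 of the 13 other wells, and no neuron held more than 11 of its 779 counts. At 36.5 CPM per kb it ranked first of the 48 genes, ahead of Kcnmb4 at 19.6 CPM per kb. The other KChIP genes were lower per kb, at 18.4 for Kcnip2, 17.3 for Kcnip4 and 5.24 for Kcnip3. Their levels were 64.1 ± 30.5, 62.7 ± 28.1 and 18.6 ± 8.74 CPM. Kcnip2 ranged from 37.9 to 116 CPM with the highest value in female 1, and Kcnip4 ranged from 21.6 CPM in female 2 to 101 CPM in female 3. Together the KChIP genes summed to 372 ± 71.5 CPM, or 27.9% of the counts of the 48 genes, and Kcnip1 gave 61.0% of that sum. Their Kv4 partners summed to 61.9 ± 17.8 CPM. Among these, Kcnd2 (Kv4.2) was at 38.4 ± 18.7 CPM, with 13.9 CPM in female 1 and 65.2 CPM in male 1 as its lowest and highest values. Kcnd3 (Kv4.3) was at 15.3 ± 3.94 CPM and Kcnd1 (Kv4.1) at 8.27 ± 3.96 CPM.

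RefSeq lists several transcription starts for Kcnip1, the gene in which most of the calls below were made. The 250 bases before each of the 3 starts are shown, 5′ to 3′ on the minus strand of GRCm38.p6, together with those of Kcnf1. Capitals mark CAAGGTCA, letters that the product of Nr5a1 is known to recognize.
Kcnip1, start at chr11:33680683-33680932: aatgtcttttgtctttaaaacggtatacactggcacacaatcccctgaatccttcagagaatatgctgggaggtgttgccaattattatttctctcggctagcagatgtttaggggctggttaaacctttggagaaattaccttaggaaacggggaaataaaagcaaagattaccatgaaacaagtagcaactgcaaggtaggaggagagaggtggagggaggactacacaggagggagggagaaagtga
Kcnip1, start at chr11:33843687-33843936: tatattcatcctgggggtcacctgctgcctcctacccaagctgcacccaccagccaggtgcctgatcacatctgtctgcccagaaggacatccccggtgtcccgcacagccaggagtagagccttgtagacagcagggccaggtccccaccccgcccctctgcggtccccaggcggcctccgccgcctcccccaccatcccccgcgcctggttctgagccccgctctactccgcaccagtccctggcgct
Kcnip1, start at chr11:33993194-33993443: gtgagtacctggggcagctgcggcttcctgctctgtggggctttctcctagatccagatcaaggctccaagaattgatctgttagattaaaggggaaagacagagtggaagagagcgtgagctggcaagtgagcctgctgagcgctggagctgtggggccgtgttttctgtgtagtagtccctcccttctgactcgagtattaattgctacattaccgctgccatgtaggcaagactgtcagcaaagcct
Kcnf1, chr12:17176889-17177138: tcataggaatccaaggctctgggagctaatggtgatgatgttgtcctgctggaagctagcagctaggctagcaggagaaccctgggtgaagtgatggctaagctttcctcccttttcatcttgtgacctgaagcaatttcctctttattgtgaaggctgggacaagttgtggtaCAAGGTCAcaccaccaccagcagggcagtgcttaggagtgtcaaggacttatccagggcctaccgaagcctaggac
This motif was searched on both strands, as CAAGGTCA or TGACCTTG, in windows of 300 bases from 250 before to 50 after each start. It was in 512 of all 32851 windows (1.56%). Of the 48 genes, 35 had a window, 53 in all, and 1 window (1.89%), that of Kcnf1, held it, with the first base at position 175 of the window. None of the 3 windows of Kcnip1 and none of the 4 of Kcnk2 held these letters, which says nothing about binding elsewhere or to other letters. Kcnf1 encodes a Kv subunit that forms no channel alone, and was at 10.7 ± 3.86 CPM.

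K2P channels carry the background potassium current. Kcnk2 (TREK-1, opened by stretch, warmth and lipids; ENSMUSG00000037624.15, chr1:189207930-189402273, minus strand) was at 90.4 ± 14.4 CPM, from 74.9 to 114 CPM over mice, with a median of 88.9. It had a count in 195 neurons (37.7%) and in 1 of the 13 other wells. Opposite-strand exons of A430027H14Rik overlap 12.2% of the exon length of Kcnk2, and no source used here gives the strand of counting. Male and female values of Kcnk2 overlapped, and its spread relative to its mean was smaller than that of Kcnk1 (TWIK-1). Kcnk1 was at 41.7 ± 21.5 CPM and ran from 10.8 CPM in female 2 to 66.5 CPM in male 1. Per kb of exon Kcnk2 was at 18.3 CPM and Kcnk1 at 18.6 CPM. The acid-sensitive channel gene Kcnk3 (TASK-1) was at 29.1 ± 11.7 CPM. The 7 K2P genes summed to 205 ± 40.6 CPM. The remaining Kcnk12, Kcnk10, Kcnk4 and Kcnk13 averaged 7.30 to 14.3 CPM.

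BK channels open with voltage and calcium together and speed repolarization. Their pore gene Kcnma1 was at 59.5 ± 12.4 CPM (43.9 to 75.7 over mice) and their beta4 subunit gene Kcnmb4, the neuronal beta subunit that slows the channel, was at 65.3 ± 20.2 CPM (39.4 to 101). Divided by exon length the subunit stood well above the pore, at 19.6 against 3.50 CPM per kb, ranks 2 and 20 of the 48. Annotated exons of Kcnmb4 overlap those of an opposite-strand RNA, Kcnmb4os2, over 20.8% of their length. The other calcium-activated family, the SK channels of the afterhyperpolarization, was sparse at 23.0 ± 7.84 CPM over its 3 genes, and Kcnn1 was the highest at 8.38 ± 4.81 CPM. Kcnt1 (Slack), a sodium-activated channel, was at 31.8 ± 10.2 CPM. Kcnu1, whose channel is known from sperm, was at 11.1 ± 6.71 CPM and had no count in female 2.

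Kv1 channels limit firing near threshold, and Kcna6 (Kv1.6) gave 60.6% of the counts of this family. Kcna6 was at 63.0 ± 24.6 CPM, with 64.5 to 86.1 CPM in males and 62.5, 69.5 and 16.2 CPM in females. The value of female 2 stood below the other 5. Opposite-strand exons of Gm26673 overlap 39.6% of the exon length of Kcna6. Kcna6 lies beside Kcna1 and Kcna5 on chromosome 6 (chr6:126532551-126740674 from the start of Kcna5 to the end of Kcna6), and those genes were at 6.61 ± 3.67 and 13.7 ± 11.3 CPM. Per kb they stood at 1.38 and 4.77 CPM against 10.6 CPM for Kcna6. Kcna2 was at 14.7 ± 3.99 CPM and Kcna4 ran from 6.76 to 16.2 CPM over mice. The beta subunits that join Kv1 pores, Kcnab1 and Kcnab2, were at 28.6 ± 12.1 and 21.7 ± 7.88 CPM.

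KCNQ channels carry the M current, which receptors coupled to Gq close. Kcnq3 was at 48.9 ± 12.8 CPM, or 3.32 CPM per kb, and Kcnq5 at 7.55 ± 4.42 CPM. Kv3 channels allow fast firing, and Kcnc1 (Kv3.1) was at 56.6 ± 11.6 CPM, from 37.9 to 69.5 CPM over mice. Kcnc4 was at 28.7 ± 12.9 CPM and Kcnc2 at 8.60 ± 5.25 CPM. Kcnb2, a Kv2 delayed rectifier, was at 28.9 ± 9.28 CPM. The 4 modifier genes, which join Kv2 pores, summed to 40.4 ± 4.72 CPM, with Kcng2 the highest in CPM at 13.0 ± 6.64 CPM. In the EAG family, Kcnh2 (ERG1) was at 17.1 ± 12.1 CPM, Kcnh1 at 9.13 ± 4.84 CPM and Kcnh7 at 8.94 ± 5.47 CPM.

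The 5 inward rectifier genes summed to 61.8 ± 16.5 CPM in these neurons. The GIRK channels, opened by receptors coupled to Gi, were represented by Kcnj3 (GIRK1) at 21.7 ± 14.4 CPM, Kcnj9 (GIRK3) at 16.9 ± 5.76 CPM and Kcnj5 (GIRK4) at 8.84 ± 6.24 CPM. Kcnj3 reached 48.7 CPM in female 2 and was at 10.1 to 23.2 CPM in the other 5 mice. Opposite-strand exons of Gm26794 overlap 31.1% of its exon length. Kcnj6 (GIRK2) had 3 counts in all and did not meet the limit of 20. Kcnj11, the KATP pore, had 24 counts in 24 neurons and a level of 8.72 ± 4.33 CPM, with 3.83 to 9.36 CPM in males and 8.45 to 16.2 CPM in females. Kcnj11 passed the count filter in none of the set comparisons, and in the fits with no filter it was not called in any.

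Neurons were then divided by a count of 1 marker at a time: Nr5a1 and Fezf1, transcription factors of the VMH, Tac1 and Pdyn, the precursor genes of substance P and dynorphin, Sst, the somatostatin gene, and Gad1, a GABA synthesis enzyme. Detection sets overlap, and 91 of the 156 neurons with Nr5a1 also held Pdyn. A marker is also found more often in deeper cells. Of the neurons with Fezf1 66.8% lay above the median depth of their mouse's neurons, as did 66.8% of those with Tac1, 61.5% with Nr5a1 and 60.1% with Pdyn, but 47.6% with Sst and 45.7% with Gad1. Counts were summed per set and mouse and tested with edgeR, with the mouse as a block. Only 13 of the 48 genes passed the filter on low counts, and so were tested, in any of the 8 set comparisons.

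**Figure D2:**
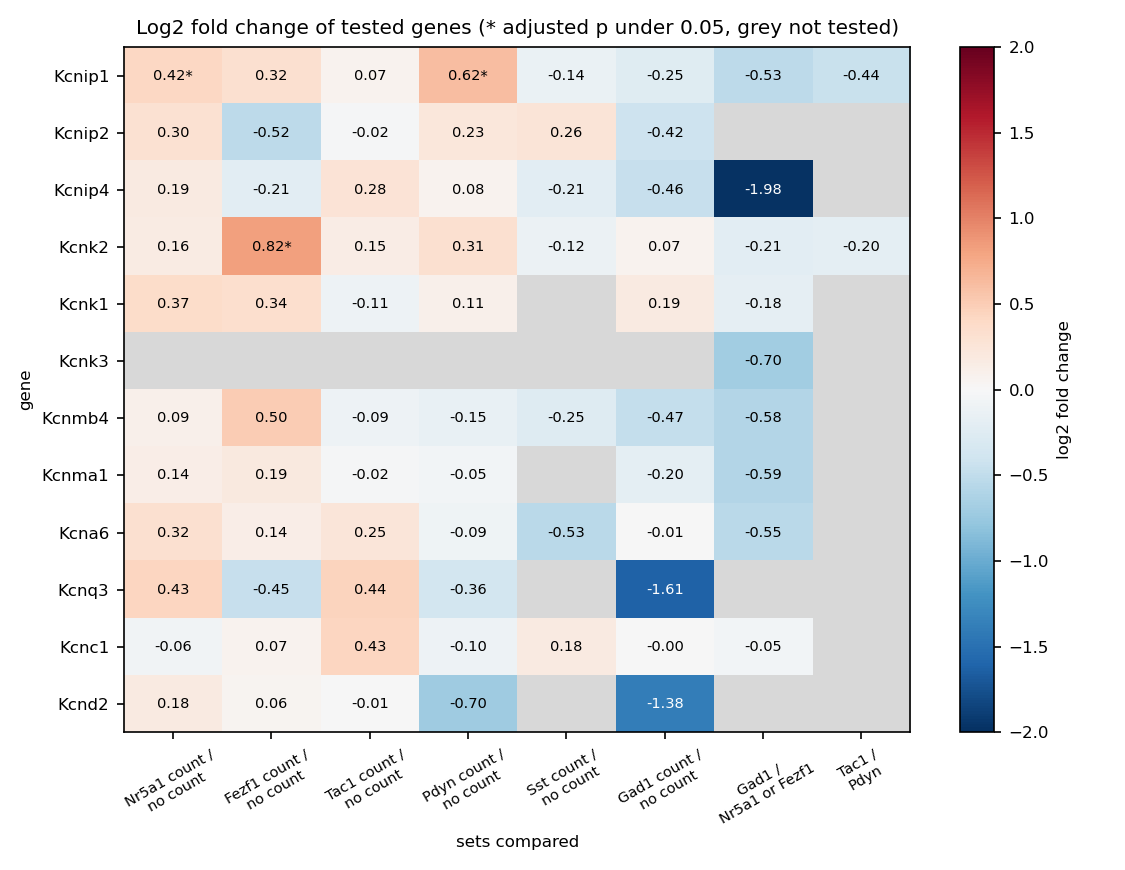
Log2 fold change of the tested genes reported here in each of the 8 comparisons of neuron sets (colour and number; asterisk, adjusted p under 0.05; grey, not tested for low counts). The asterisks stand at Kcnip1 for Nr5a1 (0.42) and Pdyn (0.62) and at Kcnk2 for Fezf1 (0.82).

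Kcnip1 was higher in neurons with a Pdyn count than in neurons without. Neurons with Pdyn had 293, 339 and 297 CPM in males 1 to 3 and 217, 245 and 271 CPM in females 1 to 3, against 155, 242 and 176 CPM and 223, 141 and 158 CPM in neurons without. The set with Pdyn was the higher one in 5 of 6 mice, all but female 1, where the values were 217 and 223 CPM. Means were 277 ± 42.8 CPM with Pdyn and 183 ± 40.9 CPM without (SD, n = 6 mice), a log2 fold change of 0.62 (SE 0.114, edgeR adjusted p = 0.000546). Kcnip1 was counted in 170 of 223 neurons with Pdyn and in 156 of 294 without. Of 4180 genes tested 1.89% were called in this comparison, and of the 48 potassium channel genes 11 were tested and 1 was called. The median log2 fold change was -0.05 over the 11 and -0.02 over all genes.

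Depth moved with the sets: the median was 7198 counts in neurons with Pdyn and 5118.5 in those without. Kcnip1 itself was at 234 ± 54.2 CPM in the neurons above their mouse's median depth and 210 ± 60.1 CPM in the others, with the deeper neurons higher in 3 of 6 mice. Kcnip1 stayed called in 12 of 14 alternatives, DESeq2 among them (0.62, adjusted p = 0.0201; range over alternatives 9.3e-05 to 1.00). When every neuron was thinned to 2184 counts and the sets were remade, the log2 difference was 0.27 (SE 0.203, adjusted p = 0.864), and without the mouse as a block it was 0.61 (adjusted p = 1.00). Without female 2, the shallowest library, it was 0.62 (adjusted p = 0.00158).

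None of the other genes tested by Pdyn passed. Kcnd2 had 35.3 ± 24.5 CPM with Pdyn and 47.5 ± 22.3 CPM without (log2 -0.70, SE 0.280, adjusted p = 0.270), and it was lower with Pdyn in 5 of 6 mice. Kcnk2 had 111 ± 33.4 and 79.0 ± 22.2 CPM (log2 0.31, adjusted p = 0.560). Kcnq3 was at 61.4 ± 56.7 CPM with Pdyn and 51.5 ± 11.6 CPM without, yet its fitted log2 change was -0.36 (adjusted p = 0.713). Female 2 alone, with 175 CPM in its small Pdyn set, sets that mean. As sums, KChIP genes were at 427 ± 75.0 CPM with Pdyn and 321 ± 50.8 CPM without, and Kv beta genes at 65.4 ± 23.6 and 40.7 ± 17.8 CPM, each higher with Pdyn in 6 of 6 mice. These sums over families were not tested, and the KChIP sum includes Kcnip1, called above. Of the 15 families, only those with the same direction in 6 of 6 mice are given, here and in the other set comparisons of 6 mice. That agreement is how they were chosen, so it is no evidence of a difference.

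Neurons with Nr5a1 also had more Kcnip1, by a smaller margin. Neurons with Nr5a1 had 331, 297 and 316 CPM in males and 233, 172 and 247 CPM in females, against 192, 282 and 222 CPM and 204, 155 and 185 CPM in neurons without. The set with Nr5a1 was higher in 6 of 6 mice, though the ranges of the sets overlap. Means were 266 ± 60.0 CPM with Nr5a1 and 207 ± 43.3 CPM without (log2 0.42, SE 0.113, adjusted p = 0.0437). Of 3982 genes 1.16% were called, and of the 48 genes 11 were tested and 1 called, with a median log2 fold change of 0.19 over the 11 and -0.00 over all genes. This call held in 4 of 14 alternatives (adjusted p 0.0179 to 1.00). It was lost with DESeq2 (0.40, adjusted p = 0.348) and when female 2 (0.0682), female 3 (0.151), male 1 (0.325) or male 3 (0.238) was left out, the values being adjusted p. In thinned neurons the difference was 0.18 (SE 0.288, adjusted p = 0.998), and median depth was 6707.5 counts with Nr5a1 and 5448 without.

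Since Nr5a1 and Pdyn share neurons, Kcnip1 was read in the 4 sets they make. It was at 308 ± 52.6 CPM in the 91 neurons with both, 193 ± 61.6 CPM in the 65 with Nr5a1 alone, 254 ± 53.0 CPM in the 132 with Pdyn alone and 175 ± 28.5 CPM in the 229 with neither (n = 6 mice). Median depth in the same order was 7915, 5359, 6852.5 and 4896 counts, which is the order of the Kcnip1 levels. The fewest neurons in a mouse were 2, 5, 9 and 20 in that order. The limit of 5 neurons used in the fits was not applied to these levels. Among neurons without Nr5a1 the Pdyn difference was 0.55 on the log2 scale (SE 0.148, adjusted p = 0.0474). Among neurons without Pdyn the Nr5a1 difference was 0.18 (SE 0.207, adjusted p = 0.909). The part of depth in these differences was not tested. The thinning given above for Pdyn and Nr5a1 also remade the sets from thinned counts and left neurons out, so it cannot isolate depth.

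**Figure D3:**
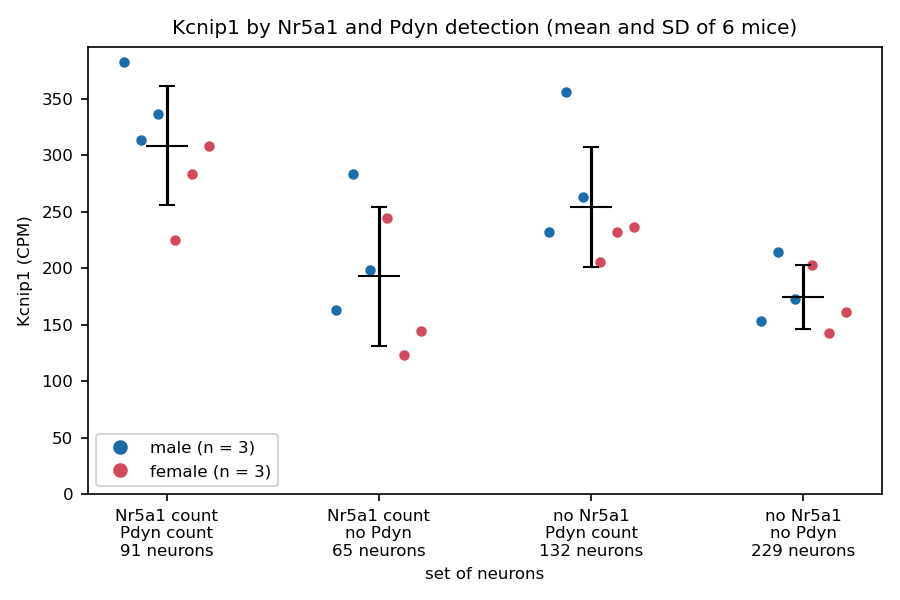
Kcnip1 in CPM in each mouse in the 4 sets of neurons made by a count of Nr5a1 and of Pdyn, with the mean and SD of 6 mice. The set with both markers averaged 308 CPM and the set with neither 175 CPM, and the single-marker sets overlapped each other. The set with both markers held as few as 2 neurons in a mouse.

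The other genes tested by Nr5a1 did not pass. Kcnq3 was at 65.0 ± 34.6 CPM with Nr5a1 and 42.6 ± 16.0 CPM without (log2 0.43, adjusted p = 0.618), Kcnk1 at 46.2 ± 27.6 and 36.9 ± 22.1 CPM (0.37, adjusted p = 0.668) and Kcna6 at 74.7 ± 21.2 and 56.3 ± 25.9 CPM (0.32, adjusted p = 0.670). Of the 11 fitted changes 10 were above 0, where the median change over all genes was -0.00. All 48 genes summed to 1513 ± 101 CPM in neurons with Nr5a1 and 1305 ± 87.2 CPM in those without, higher in 6 of 6 mice. This was not particular to Nr5a1. With and without Pdyn the sum was 1501 ± 113 and 1300 ± 106 CPM, higher in 6 of 6. By Fezf1 it was 1441 ± 89.5 and 1309 ± 93.6 CPM (5 of 6) and by Tac1 1388 ± 179 and 1343 ± 80.9 CPM (4 of 6). By Sst it was 1320 ± 124 and 1379 ± 88.2 CPM (1 of 6). The Kv1 sum was 141 ± 20.7 CPM with Nr5a1 and 93.3 ± 27.2 CPM without, again higher in 6 of 6. Sums were not tested. Neurons with Nr5a1, Pdyn, Fezf1 or Tac1 were also the deeper ones, unlike those with Sst, and the part of depth was not tested.

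Kcnk2 was higher in neurons with Fezf1. It was at 82.6, 95.5 and 135 CPM with Fezf1 in males and 121, 191 and 133 CPM in females, against 83.5, 61.6 and 85.0 CPM and 40.1, 69.9 and 43.4 CPM without. The set with Fezf1 was higher in 5 of 6 mice, and in male 1 the sets were level. Means were 126 ± 37.8 CPM with Fezf1 and 63.9 ± 19.3 CPM without (log2 0.82, SE 0.198, adjusted p = 0.00991). Kcnk2 was counted in 117 of 211 neurons with Fezf1 and in 78 of 306 without. Of 4477 genes 1.9% were called, and of the 48 genes 12 were tested and 1 called, with median log2 fold changes of 0.11 over the 12 and -0.01 over all genes.

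The Kcnk2 call held in 9 of 13 alternatives (adjusted p 0.000818 to 0.480), and its size lay between 0.67 and 1.06 in all 13. It was lost with DESeq2 (0.90, adjusted p = 0.0844), without female 3 (0.67, adjusted p = 0.142), without male 3 (0.89, adjusted p = 0.0539) and without the mouse as a block (adjusted p = 0.480), but not without the shallow female 2 (0.79, adjusted p = 0.0204). Neurons with Fezf1 were also deeper, at a median of 7320 against 5118.5 counts, and thinned neurons held too few Kcnk2 counts for the test. Kcnk2 was at 96.8 ± 11.3 CPM in the neurons above their mouse's median depth and 80.0 ± 27.8 CPM in the others. In neurons without Gad1 and Gad2 the difference was 0.87 (SE 0.212, adjusted p = 0.0295). The Kcnk2 difference was 1.11 lower in males than in females on the log2 scale (SE 0.394, unadjusted p = 0.00733), which did not pass over all genes (adjusted p = 0.999).

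**Figure D4:**
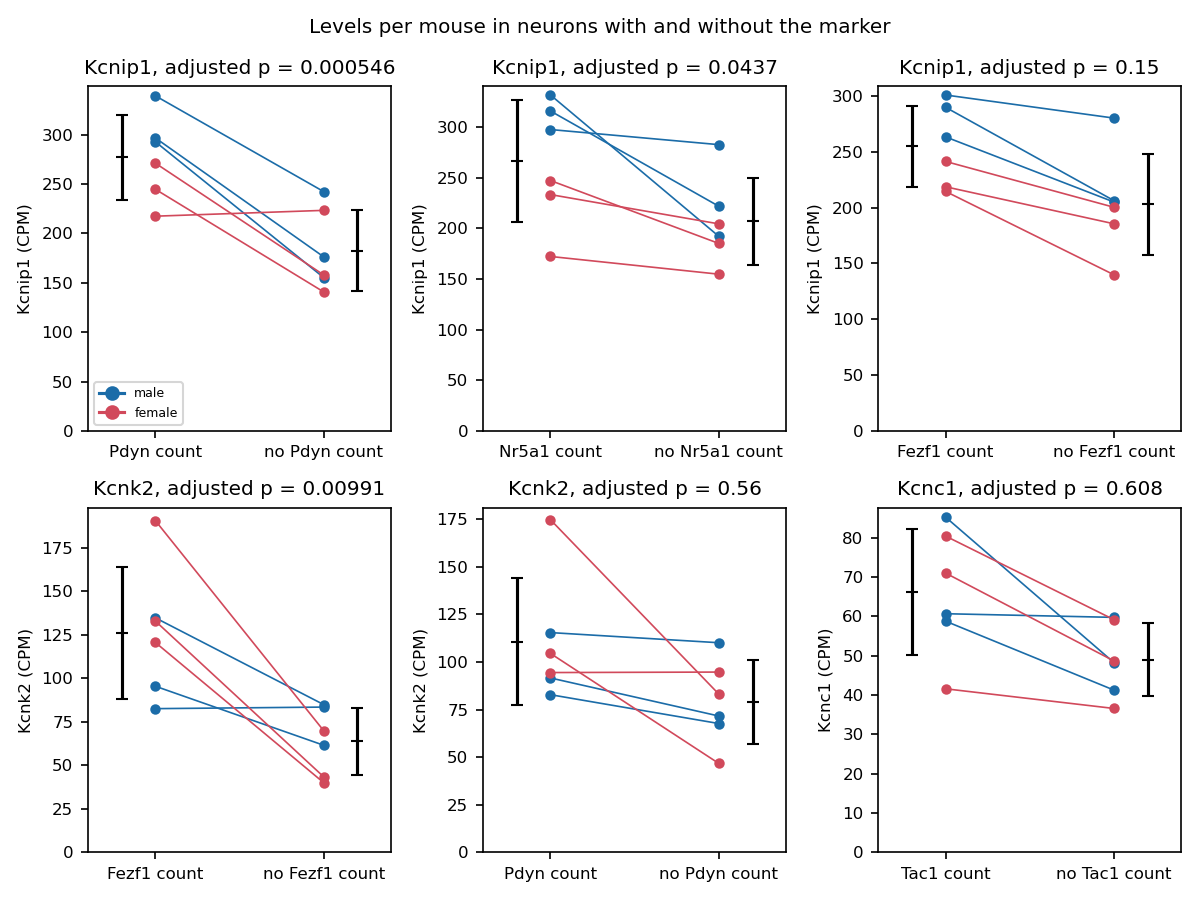
CPM per mouse in neurons with and without a marker count, joined by mouse (males blue, females red), with mean and SD of 6 mice beside the points, for Kcnip1 by Pdyn, Nr5a1 and Fezf1, Kcnk2 by Fezf1 and Pdyn, and Kcnc1 by Tac1. Lines fall to the right in all or all but 1 mouse in each panel. The panels were picked, and genes with fitted changes below 0, such as Kcnd2 by Pdyn (log2 -0.70) and Kcnip2 by Fezf1 (log2 -0.52), are not shown. The adjusted p in the titles is under 0.05 for Kcnip1 by Pdyn and by Nr5a1 and for Kcnk2 by Fezf1.

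Kcnip1 did not pass in the Fezf1 comparison, at 255 ± 36.2 CPM with Fezf1 and 203 ± 45.3 CPM without (log2 0.32, SE 0.110, adjusted p = 0.150), although it was higher in 6 of 6 mice. Thinned neurons gave -0.0024 (adjusted p = 1.00). Kcnmb4 was at 72.2 ± 23.7 and 55.8 ± 21.5 CPM (log2 0.50, adjusted p = 0.322) and Kcnip2 at 54.5 ± 30.3 and 73.1 ± 33.9 CPM (log2 -0.52, adjusted p = 0.322). The BK sum was 148 ± 39.2 CPM with Fezf1 and 109 ± 25.4 CPM without and was higher in 6 of 6 mice. It was not tested.

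No potassium channel gene passed between neurons with and without Tac1. Of 4414 genes 0.702% were called, and 12 of the 48 genes were tested with none called by edgeR (1 at an unadjusted p under 0.05) or DESeq2. Kcnc1 came nearest, at 66.3 ± 16.0 CPM with Tac1 and 48.9 ± 9.31 CPM without (log2 0.43, SE 0.214, adjusted p = 0.608), higher in 6 of 6 mice. Kcnq3 was at 51.2 ± 11.6 and 44.8 ± 19.0 CPM (log2 0.44, adjusted p = 0.672) and Kcnip4 at 67.1 ± 43.9 and 58.5 ± 19.2 CPM (log2 0.28, adjusted p = 0.775). Kcnip1 had a fitted log2 change of 0.07.

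Neurons with Tac1 and no Pdyn (113) were then set against neurons with Pdyn and no Tac1 (143). Only Kcnip1 and Kcnk2 passed the count filter. Kcnip1 was at 201 ± 66.8 CPM in the Tac1 set and 271 ± 50.2 CPM in the Pdyn set (log2 -0.44, SE 0.167, adjusted p = 0.292), lower in 4 of 6 mice. Kcnk2 was at 78.4 ± 39.8 and 104 ± 47.7 CPM (log2 -0.20, adjusted p = 0.916), and the sign of its change turned when female 1 was left out (0.04). Of 2395 genes 0.96% were called, and 0 of the 2 passed by edgeR (1 at an unadjusted p under 0.05) or DESeq2. Median depth was close, at 6176 counts in the Tac1 set and 6510 in the Pdyn set. The KChIP sum was 335 ± 70.6 CPM in the Tac1 set and 414 ± 65.5 CPM in the Pdyn set, lower in 6 of 6 mice. The EAG sum was 45.0 ± 18.6 and 24.1 ± 20.2 CPM, higher in 6 of 6, and rests on 32 and 23 counts. These sums were not tested.

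Between neurons with Sst (103) and without (414), 0.221% of 3165 genes were called, and none of the 7 potassium channel genes tested passed by edgeR (0 at an unadjusted p under 0.05) or DESeq2. Kcna6 was at 40.1 ± 32.4 CPM with Sst and 68.8 ± 28.3 CPM without (log2 -0.53, SE 0.282, adjusted p = 0.907). Kcnip2 was at 71.9 ± 37.8 and 62.0 ± 29.9 CPM (0.26, adjusted p = 0.993) and Kcnmb4 at 53.6 ± 16.0 and 68.0 ± 23.5 CPM (-0.25, adjusted p = 0.993). Kcnip1 had a fitted log2 change of -0.14. There were 13 to 24 Sst neurons per mouse.

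Gad1 was found in 35 neurons, and 3 mice (female 3, male 1 and male 3) had the 5 or more needed for the fit. The set was mixed: 48.6% of these neurons also held Slc17a6, the glutamate transporter gene of most VMH neurons, against 80.9% of the rest, and 34.3% held Sst. All 48 genes summed to 1162 ± 72.0 CPM with Gad1 and 1431 ± 61.8 CPM without (n = 3 mice), lower in 3 of 3. Of 4588 genes 0.915% were called, and of 12 of the 48 genes tested none passed by edgeR (1 at an unadjusted p under 0.05) or DESeq2. The median log2 fold change was -0.22 over the 12 and -0.01 over all genes.

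Single genes of the Gad1 set rest on few counts. Kcnq3 had 3 counts with Gad1 and 89 without, a ratio of pooled CPM of 0.341 with an exact 95% interval for counting error of 0.0691 to 1.03 (fitted log2 -1.61, adjusted p = 0.620). Kcnd2 had 4 and 106 counts, a ratio of 0.382 (0.102 to 1.01; log2 -1.38, adjusted p = 0.640). Kcnip4 was at 58.6 ± 48.0 and 86.4 ± 11.7 CPM (log2 -0.46, adjusted p = 0.945). KChIP genes summed to 288 ± 76.9 CPM with Gad1 and 391 ± 13.3 CPM without, on 59 and 766 counts. Kv beta genes summed to 20.2 ± 22.4 and 63.1 ± 10.5 CPM, on 5 and 121 counts. Both were lower with Gad1 in 3 of 3 mice. So were the EAG sum (2 counts with Gad1) and Kcnt1 (2 counts), while Kcnu1 (5 counts) was higher in 3 of 3. The sums were not tested.

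Neurons with Gad1 and neither VMH factor (25) were set against those with Nr5a1 or Fezf1 and no Gad1 (287), which 2 mice allowed (female 3 and male 1). Of 3699 genes 0.135% were called, and 0 of 10 of the 48 genes passed by edgeR (2 at an unadjusted p under 0.05) or DESeq2. Kcnip4 had 2 counts in the Gad1 set and 78 in the other, a ratio of pooled CPM of 0.268 (exact 95% interval 0.0319 to 1.00; log2 -1.98, adjusted p = 0.606). Kcnip1 was at 175 ± 58.1 and 243 ± 37.9 CPM (log2 -0.53, adjusted p = 0.796). The EAG genes and Kcnt1 had no count in the Gad1 set, which at 79197 counts allows up to 37.9 CPM each, against 41.7 ± 26.7 and 30.2 ± 10.4 CPM in the other set. The Kcnt1 level is below what a count of 0 allows, so a difference in it was not detectable at this depth.

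Other genes of excitability were counted beside the potassium channels: 14 sodium channel, 26 calcium channel and 4 HCN genes, 2 SUR genes, 5 genes of proteins that join Kv channels, the leak channel gene Nalcn and 6 genes of the sodium pump. Of these 58, between 11 and 34 were tested per comparison. By Fezf1, where 1.9% of all genes were called, 21 were tested and 1 was called. This was Atp1b2, a beta subunit of the sodium pump, which was higher with Fezf1 (log2 0.52, SE 0.104, adjusted p = 0.00111). The sodium pump had 5 tested genes by Fezf1, with 1 called higher and 0 lower. DESeq2 did not call Atp1b2. In the other comparisons none of the 58 passed by edgeR (0 to 4 at an unadjusted p under 0.05) or DESeq2. Neither SUR gene was tested in any comparison.

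Between males and females no gene of the 6771 tested was called by edgeR (0.0%; 165 at an unadjusted p under 0.05; 4 called by DESeq2), and of 23 potassium channel genes tested 2 had an unadjusted p under 0.05. Kcnh2, the ERG1 channel of slow repolarization, stood farthest apart, with 6.39, 9.36 and 3.87 CPM in males and 32.4, 27.0 and 23.7 CPM in females. Every male value was below every female value (log2 -2.07, SE 0.499, unadjusted p = 0.00195, adjusted p = 0.999). Kcnk12, a K2P gene, was at 26.8, 20.6 and 18.1 CPM in males and 6.95, 0 and 13.5 CPM in females (log2 1.35, adjusted p = 0.999). Kcnt1 was at 28.1, 18.7 and 24.5 CPM in males and 44.0, 43.3 and 32.1 CPM in females (log2 -0.67, adjusted p = 0.999).

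Male and female values did not overlap in 5 of the 23 tested genes, beside 8.52% of all 6771 genes. Kcnip1 and Kcnk12 were higher in males, and Kcnh2, Kcnt1 and Kcnq3 were lower. Kcnip1 was at 234, 288 and 254 CPM in males and 220, 157 and 204 CPM in females (log2 0.42, adjusted p = 0.999), with female 2 lowest and male 2 highest. Of the 25 genes that did not pass the count filter, Kcnu1 (higher in males) and Kcnc2 (lower) did not overlap either. The EAG sum was 21.7, 22.5 and 20.7 CPM in males and 48.6, 48.7 and 49.0 CPM in females, with no test. EAG was not the only family whose values did not overlap. The inward rectifier sum was 55.0, 48.7 and 42.6 CPM in males and 74.1, 86.5 and 64.2 CPM in females. The KCNQ sum, also lower in males, did not overlap either, nor did the families that hold only Kcnt1 or only Kcnu1. Depth and markers of other cells also differed between the sexes, as given above, and their part in these values was not tested. For 20 pairs of a named gene and a comparison the set difference was tested between the sexes, and the smallest adjusted p was 0.998.

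**Figure D5:**
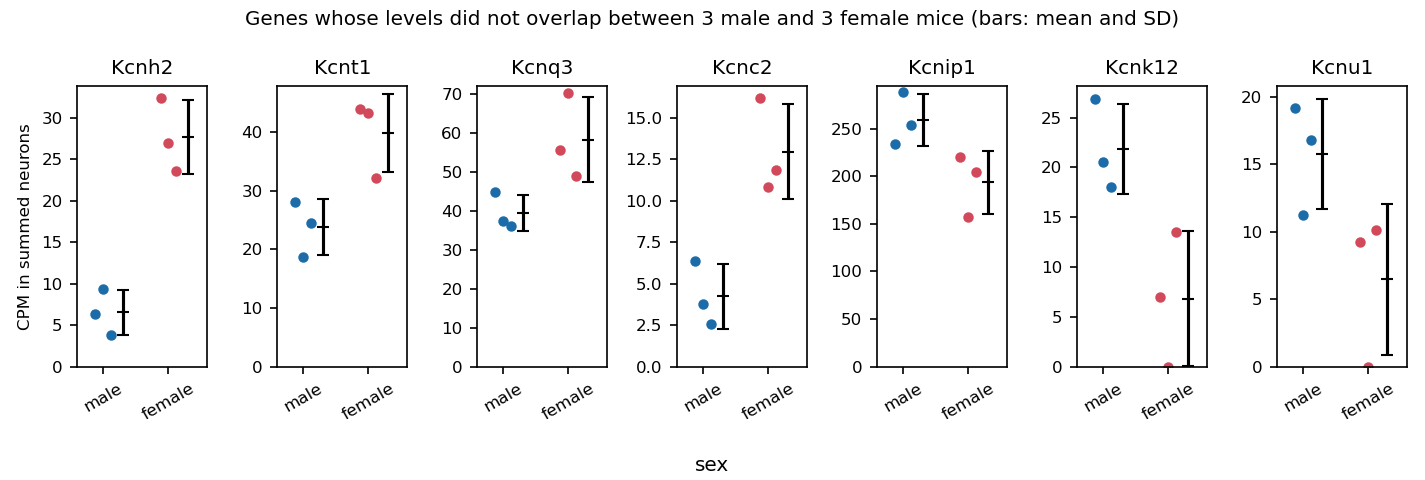
CPM in the summed neurons of each mouse for the 7 genes whose levels did not overlap between 3 males (left) and 3 females (right), with mean and SD. Kcnh2, Kcnt1, Kcnq3 and Kcnc2 were lower in males and Kcnip1, Kcnk12 and Kcnu1 higher, and none of the 5 that were tested, all but Kcnc2 and Kcnu1, had an adjusted p under 0.05.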

How the data were processed

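The authors deposited raw counts, 1 table per mouse with genes in rows and wells in columns, made with HTSeq on mm10 per the submitters' processing notes. The aligner, the strand, the handling of multi-mapped reads and the use of molecular identifiers are not stated in those notes or labels. Counting intervals cover counting error only.

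The potassium channel genes, families and other lists were chosen with earlier results of these data known. Wells with fewer than 500 genes detected or 25% or more mitochondrial counts were left out. Counts were summed per neuron set and mouse, since cells are not replicates, using mice with at least 5 neurons in both sets. The sums were tested in edgeR 4.0.16 (R 4.3.3; quasi-likelihood, TMM, filterByExpr, Benjamini-Hochberg over all genes tested, threshold 0.05), with the mouse as a block for sets and none for sex. Genes defining the sets were left out of the fit. Each SE given is the absolute log2 change divided by the square root of the quasi-likelihood F statistic. No doublet caller was run. The fits were tested on simulated counts.

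Named in each comparison were genes that passed or, where fewer than 3 did, the 3 with the smallest p, and in levels the 10 highest, the highest of each family and fixed KChIP, KCNQ, GIRK and KATP genes. Others were named after their values were seen. Results of a few genes are not reported here. Alternatives were DESeq2 1.42.0, RLE scaling, no count filter, no block, all kept wells, thinning to 2184 counts (52 neurons left out, 47 of them of female 2), markers at 2 or more counts, leaving out each mouse, and 6 sets added after seeing the data. Positions are from GENCODE vM21 (GRCm38/mm10), matched by symbol for 48 of 48 genes.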

Additional observations from a re-analysis of the deposited data

Results flagged for a closer look

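Of 44 sets of 6 mice that were checked for a mouse far from the others, 4 were found, where chance gives about 1 in 20. Kcna6 had its lowest level, 16.2 CPM, in female 2, the shallowest library, against 62.5 CPM or more in the other 5 mice. Kcnj3 had its highest level, 48.7 CPM, in the same mouse. The Kcnip1 difference between neurons with and without Pdyn was -5.89 CPM in female 1, against 97.0 to 138 CPM in the other 5 mice. The Kcnq3 difference between the same sets was 124 CPM in female 2, against -36.6 to 11.3 CPM in the others, and the Pdyn set of female 2 held 11 neurons. The part of depth in these values was not tested.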

How the results depend on the processing

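Each count of potassium channel genes called was remade under every alternative. The 1 gene called by Nr5a1 (Kcnip1) became 0 with DESeq2, with no filter on low counts, with no replicate block, after thinning, with Nr5a1 at 2 counts or more and in neurons with no Pdyn count. The 1 called by Fezf1 (Kcnk2) became 0 with DESeq2, with no replicate block and after thinning, where Kcnk2 was not tested. The 1 called by Pdyn (Kcnip1) became 0 with no replicate block and after thinning. Leaving out 1 mouse at a time gave 0 to 1 by Nr5a1, 0 to 1 by Fezf1, 1 to 1 by Pdyn and 0 to 0 in the other comparisons in which it could be run. It could not be run for Gad1 against the VMH factors, where 1 mouse would remain, and thinning gave no value there. Counts of 0 stayed 0 in every alternative, but some alternatives tested so few potassium channel genes that a 0 says little. After thinning, 1 was tested by Tac1, 1 by Sst, 1 by Gad1 and 0 between Tac1 and Pdyn. With mice of at least 2 neurons in both sets, 2 were tested by Gad1 and 1 for Gad1 against the VMH factors. Of the single genes, Kcnip1 by Fezf1 turned to -0.0024 after thinning and Kcnk2 between Tac1 and Pdyn to 0.0412 without female 1 (-0.566 to 0.0412 over the mice left out), and the causes were not tested. Over all genes, DESeq2 and the fit with no replicate block called 9 and 0 by Nr5a1 (46 with edgeR and the block), 33 and 4 by Fezf1 (85), 7 and 0 by Tac1 (31), 26 and 1 by Pdyn (79), 1 and 1 by Sst (7), 3 and 1 by Gad1 (42), 1 and 0 by Gad1 against the VMH factors (5) and 14 and 0 by Tac1 against Pdyn (23). Thinned neurons gave 0 to 9 such calls by set. Males and females share numbers 1 to 3, and the labels do not say what a number means. Same-number deviations correlated at -0.127, -0.0848 and 0.158, and different-number ones at -0.0986 to 0.204. So few mice cannot decide whether the numbers pair them. The replicate block called 0 potassium channel genes by sex. With 20 to 779 counts per gene, 25 of the 48 genes passed the count filter in none of 9 comparisons, and the fits with no filter, which tested all 48, called none of these 25.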
